A study of Mus musculus with 6 samples.

Results

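Expression of 9 genes of hepatic gluconeogenesis and insulin signalling was examined in liver tissue of ErbB4-/- and control mice. The group holds Pck1, G6pc, Fbp1 and Pcx, the gluconeogenic enzymes, Ppargc1a and Foxo1, which regulate transcription of those enzymes, and Insr, Irs1 and Irs2, the insulin receptor and its substrates. All 9 were measured, of 22180 genes in all, each through a probe set (the array feature that gives 1 value per gene and array) that the platform annotation assigns to 1 gene symbol. Where a gene had several such probe sets, the one with the highest mean stood for it. The choice followed function and used no measured value, although results of these arrays were known when the group was put together.

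The 3 ErbB4-/- mice were full mutants of ErbB4, a receptor tyrosine kinase that binds neuregulins, kept alive by transgenic ErbB4 in the heart and backcrossed to C57BL/6J. The 3 control mice were wild-type C57BL/6J. Both groups had received 1 injection of DEN on postnatal day 14, a carcinogen treatment of the liver, and each mouse was profiled on 1 array. The treatment protocol gives 32 weeks to dissection for every mouse. The sample characteristic differs from it, with 35, 36 and 37 weeks for ErbB4-/- replicates 1 to 3 and 32, 33 and 34 weeks for control replicates 1 to 3, by which every ErbB4-/- mouse was older than every control. Food was given ad libitum. The feeding state, the hour of dissection and the sex of the mice were not found in the labels used here, nor whether tumour tissue was included.

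Gluconeogenesis makes glucose from lactate, amino acids and glycerol, and the liver relies on it between meals. Pyruvate carboxylase and phosphoenolpyruvate carboxykinase carry pyruvate to phosphoenolpyruvate, fructose bisphosphatase bypasses phosphofructokinase, and glucose phosphatase releases free glucose. Glucagon and glucocorticoids raise transcription of these enzymes in fasting, through cyclic AMP response factors, the coactivator PGC-1alpha and the forkhead factor FOXO1. Insulin acts through its receptor and the substrates IRS1 and IRS2 to activate AKT, which keeps FOXO1 out of the nucleus. In mouse liver Irs2 is itself a gene that fasting raises and insulin represses.

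Sequence upstream of the annotated start is shown for 5 of the genes, as the stretches on which cyclic AMP and insulin responses of such genes have mostly been studied. Promoters of 8 of the 9 genes were found by symbol in RefSeq, assembly GRCm38.p6. The 250 bases before the start were searched on both strands for the core of the cyclic AMP response element, TGACG, the FOXO core GTAAACA and the insulin response core CAAAACA. The last 2 of these motifs share the letters AAACA, and no match overlapped another. Capitals mark the matches, all of which were on the reverse strand, as CGTCA or TGTTTTG. Pck1 (chr2:173152823-173153072, plus strand), Ppargc1a (chr5:51567726-51567975, minus strand), G6pc (chr11:101367466-101367715, plus strand), Irs1 (chr1:82291440-82291689, minus strand) and Irs2 (chr8:11008930-11009179, minus strand) are written 5′ to 3′ along the gene.
Pck1: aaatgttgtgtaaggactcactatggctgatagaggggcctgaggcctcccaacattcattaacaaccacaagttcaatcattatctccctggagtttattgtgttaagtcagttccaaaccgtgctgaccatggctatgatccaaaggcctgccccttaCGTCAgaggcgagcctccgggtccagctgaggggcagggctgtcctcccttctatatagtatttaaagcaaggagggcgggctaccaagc
Ppargc1a: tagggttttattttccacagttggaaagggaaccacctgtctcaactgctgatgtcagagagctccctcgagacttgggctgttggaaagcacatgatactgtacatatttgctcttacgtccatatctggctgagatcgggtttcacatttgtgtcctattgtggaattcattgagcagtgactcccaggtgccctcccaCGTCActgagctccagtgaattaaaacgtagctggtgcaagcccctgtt
G6pc: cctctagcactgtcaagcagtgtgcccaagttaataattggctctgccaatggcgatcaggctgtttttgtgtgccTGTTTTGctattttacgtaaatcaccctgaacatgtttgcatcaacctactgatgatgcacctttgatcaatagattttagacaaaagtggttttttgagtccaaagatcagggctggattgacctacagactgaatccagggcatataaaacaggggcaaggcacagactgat
Irs1: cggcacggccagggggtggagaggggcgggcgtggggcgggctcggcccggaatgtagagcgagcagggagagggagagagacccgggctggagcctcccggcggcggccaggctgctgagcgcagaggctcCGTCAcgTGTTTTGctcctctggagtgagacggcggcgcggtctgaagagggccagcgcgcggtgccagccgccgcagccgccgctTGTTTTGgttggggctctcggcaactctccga
Irs2: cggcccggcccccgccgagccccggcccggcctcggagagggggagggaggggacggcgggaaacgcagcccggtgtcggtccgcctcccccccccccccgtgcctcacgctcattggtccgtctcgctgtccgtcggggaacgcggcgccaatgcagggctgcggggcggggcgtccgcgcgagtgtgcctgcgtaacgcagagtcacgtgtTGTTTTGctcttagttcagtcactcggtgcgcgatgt
The cyclic AMP core was present in the promoters of Pck1, Ppargc1a and Irs1, and in 17.77% of all 32851 promoters of this length. In Pck1 it lay 90 to 86 bases before the start. The insulin response core was present in G6pc, in Irs2 and at 2 places in Irs1, against 5.56% of all promoters. Irs2 held it 37 to 31 bases before the start. The FOXO core was found in none of the 8 genes and in 3.17% of all promoters. A match of letters is a description and no evidence of binding.

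The arrays were comparable in scale, with medians between 4.83 and 4.86 and correlations between arrays, across all probe sets, of 0.975 to 0.986. Erbb4, the targeted gene, measured 4.75, 5.36 and 5.61 in ErbB4-/- replicates 1 to 3, against 5.42, 5.73 and 5.42 in control replicates 1 to 3. The groups overlapped, so this probe set does not separate the genotypes. Liver origin was checked with 10 hepatocyte markers, whose mean was 13.18 to 13.27 in ErbB4-/- arrays and 13.27 to 13.34 in control arrays, while lists of adipocyte, pancreatic and muscle markers averaged between 4.29 and 4.77 on every array. Control replicate 1 stood apart in sex-biased liver genes, with the male-type Hsd3b5 at 2.52 there and 8.70 to 9.88 on the other arrays, and the female-type Cyp2b9 at 12.59 there and 7.84 to 8.46 on the others. ErbB4-/- replicate 3 lay farthest out on the first principal component, which held 36.1% of the variance. For the 9 genes the difference with each array left out is plotted, and the values that turned or moved most are given in the text. In whole tissue, fewer cells of a type and less RNA per cell cannot be told apart.

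None of the 9 genes differed between ErbB4-/- and control liver at an adjusted p under 0.05 (limma, Benjamini-Hochberg over 22180 genes), with adjusted p between 0.760 and 0.934. The share of all genes that passed was 0.00451%. Of the 9 genes, 0 had an unadjusted p under 0.05 (limma), against 5.72% of all genes. The median difference of the 9 genes, ErbB4-/- minus control, was -0.03 on the log2 scale, and that of all genes was 0.015. In 1 of the 9, Irs1, the groups did not overlap, which was the case for 8.33% of all genes. With the week of the sample characteristic as a covariate 0 of the 9 passed, and the difference turned to -0.029 for G6pc, -0.0074 for Pcx and 0.17 for Irs2. That week rises with the replicate number in each group and does not overlap between the groups. The fit therefore separates it poorly from genotype, here and wherever the week is used below, and its differences are extrapolations.

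**Figure D1:**
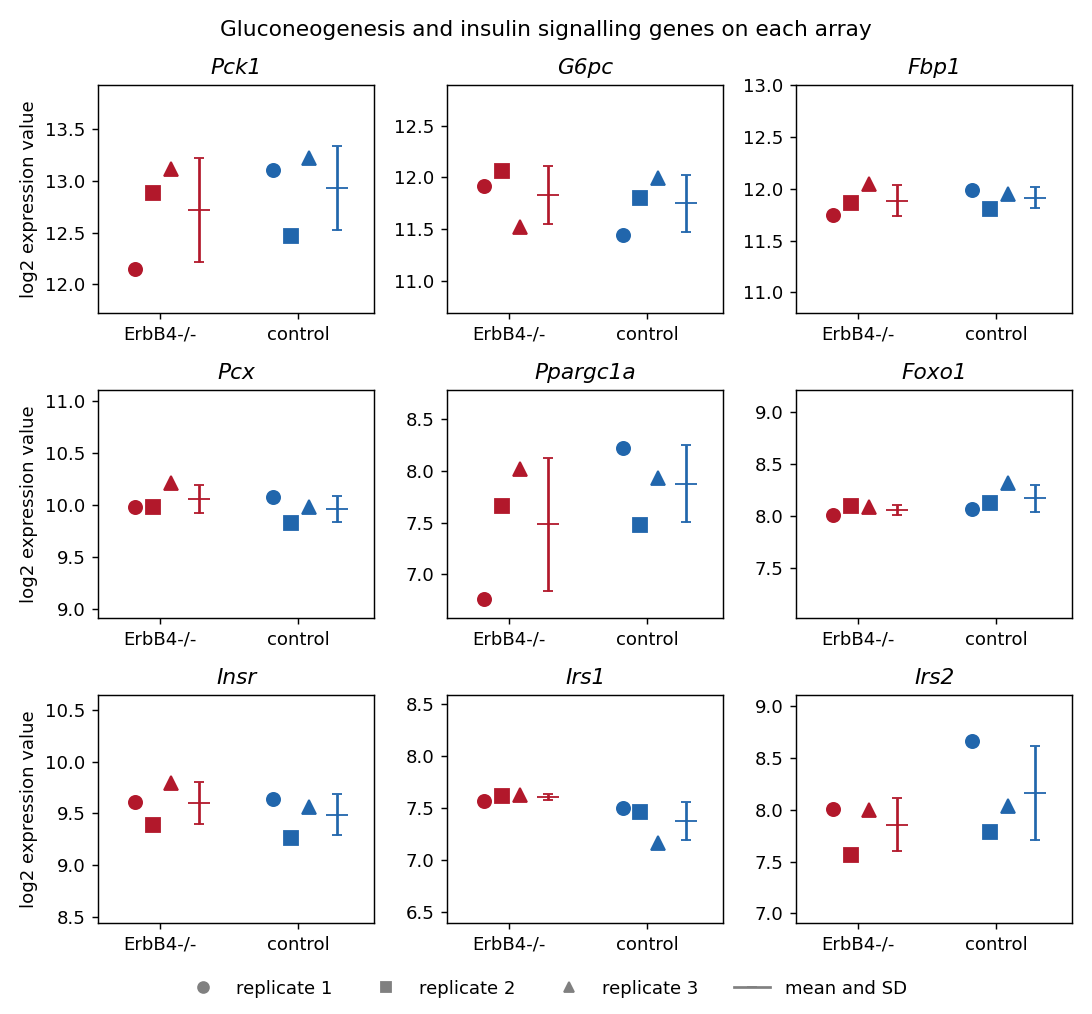
Log2 expression value (vertical axis, a span of the same size in every panel) of the 9 genes on each of the 3 ErbB4-/- arrays (left) and the 3 control arrays (right). Symbols give the replicate and bars the mean and SD. Irs1 is the gene whose groups do not overlap, and Pck1, Ppargc1a and Irs2 are spread most widely.

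Among the enzymes, Pck1, which encodes the cytosolic phosphoenolpyruvate carboxykinase, measured 12.15, 12.88 and 13.11 in ErbB4-/- replicates 1 to 3, against 13.10, 12.47 and 13.22 in control replicates 1 to 3. The lowest arrays were ErbB4-/- replicate 1 and control replicate 2, and the other 4 lay between 12.88 and 13.22. The means were 12.71 ± 0.50 in ErbB4-/- liver and 12.93 ± 0.41 in control liver (SD, n = 3 each), a log2 difference of -0.22 (standard error 0.32). As a ratio this was 0.861-fold, with a 95% interval of 0.497 to 1.49. Without ErbB4-/- replicate 1 the difference turned to 0.066, and without control replicate 2 it was -0.45. It was -0.42 without ErbB4-/- replicate 3 and -0.13 without control replicate 1.

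G6pc, the catalytic subunit of the glucose phosphatase that completes the pathway, measured 11.92, 12.06 and 11.52 in ErbB4-/- replicates 1 to 3 and 11.45, 11.80 and 12.00 in control replicates 1 to 3. The lowest arrays here were control replicate 1 and ErbB4-/- replicate 3, and the groups covered nearly the same range. With a mean of 11.83 ± 0.28 in ErbB4-/- liver and 11.75 ± 0.28 in control liver, the log2 difference was 0.09, with a standard error of 0.20 and an interval of 0.756-fold to 1.49-fold. It turned to -0.065 without control replicate 1 and to -0.028 without ErbB4-/- replicate 2, and was 0.24 without ErbB4-/- replicate 3. Pck1 and G6pc, which fasting raises together, were thus not ordered alike over the arrays: ErbB4-/- replicate 1 was the lowest for Pck1 and above the mean of the 6 arrays for G6pc.

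Fbp1, the liver fructose bisphosphatase, was held within 0.30 log2 units over the 6 arrays, at 11.75, 11.86 and 12.05 in ErbB4-/- replicates 1 to 3 and 11.99, 11.81 and 11.95 in control replicates 1 to 3. Its difference was -0.03 (standard error 0.10), and the interval of 0.829-fold to 1.16-fold was among the narrower of the 9 genes. The sign changed without ErbB4-/- replicate 1, to 0.038, and without control replicate 1, to 0.0084. Pcx, the mitochondrial pyruvate carboxylase that supplies oxaloacetate, measured 9.98, 9.98 and 10.21 in ErbB4-/- replicates 1 to 3, against 10.07, 9.83 and 9.98 in control replicates 1 to 3. The groups overlapped, and the difference of 0.10 (standard error 0.10, interval 0.904-fold to 1.27-fold) came down to 0.021 without ErbB4-/- replicate 3.

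Ppargc1a, which encodes the coactivator PGC-1alpha, had the widest spread of the 9 genes, 1.45 log2 units or 2.74-fold over the 6 arrays. It measured 6.77, 7.66 and 8.02 in ErbB4-/- replicates 1 to 3 and 8.22, 7.48 and 7.93 in control replicates 1 to 3. As for Pck1 and Fbp1, the lowest array was ErbB4-/- replicate 1 and the next was control replicate 2. The group means were 7.48 ± 0.64 in ErbB4-/- liver and 7.88 ± 0.37 in control liver (SD, n = 3 each), with a difference of -0.39, a standard error of 0.37 and an interval of 0.405-fold to 1.43-fold. Without ErbB4-/- replicate 1 the difference was -0.036, without ErbB4-/- replicate 3 it was -0.66, and without control replicate 1 it was -0.22. Foxo1, the forkhead factor restrained by insulin, measured 8.01, 8.09 and 8.08 in ErbB4-/- replicates 1 to 3, against 8.06, 8.12 and 8.32 in control replicates 1 to 3. ErbB4-/- arrays lay within 0.09 log2 units of each other, and control replicate 3 stood above them. The difference of -0.11 had a standard error of 0.08 and an interval of 0.808-fold to 1.07-fold, and was -0.033 without control replicate 3. A second probe set of Foxo1 gave the same value, 6.21, on 5 arrays and 6.25 on control replicate 2, and carried no information on the groups.

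Insr, the insulin receptor, measured 9.61, 9.38 and 9.79 in ErbB4-/- replicates 1 to 3 and 9.64, 9.27 and 9.56 in control replicates 1 to 3. The groups overlapped over most of their range. The difference was 0.11, with a standard error of 0.14 and an interval of 0.840-fold to 1.38-fold, and it was -0.0048 without control replicate 2, 0.0104 without ErbB4-/- replicate 3 and 0.18 without control replicate 1. For both Insr and Pcx, control replicate 2 was the lowest array and ErbB4-/- replicate 3 the highest.

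Irs1, the first of the insulin receptor substrates, measured 7.57, 7.62 and 7.63 in ErbB4-/- replicates 1 to 3, against 7.50, 7.46 and 7.17 in control replicates 1 to 3. Every ErbB4-/- array lay above every control array, by 0.07 log2 units at the closest, and the ErbB4-/- arrays were tightly grouped. The means were 7.60 ± 0.03 in ErbB4-/- liver and 7.38 ± 0.18 in control liver (SD, n = 3 each), a difference of 0.23 (standard error 0.10). The interval ran from 0.986-fold to 1.39-fold, and the test was not passed (limma, unadjusted p = 0.0656, adjusted p = 0.760). Genes without overlap and higher in ErbB4-/- liver made up 4.52% of all genes. Control replicate 3 gave the lowest value, and without it the difference was 0.12. A second, dimmer probe set of Irs1 measured 4.65, 4.76 and 4.65 in ErbB4-/- liver and 4.65, 4.62 and 4.76 in control liver, with a difference of 0.01.

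Irs2, the substrate that fasting induces in liver, measured 8.005, 7.56 and 7.998 in ErbB4-/- replicates 1 to 3, against 8.66, 7.78 and 8.03 in control replicates 1 to 3. Control replicate 1 was the highest array, and the groups overlapped. The means were 7.85 ± 0.25 in ErbB4-/- liver and 8.16 ± 0.45 in control liver (SD, n = 3 each), a difference of -0.30 (standard error 0.26) and an interval of 0.521-fold to 1.26-fold. Without control replicate 1, the array that stood apart in sex-biased genes, the difference was -0.053, and without control replicate 2 it was -0.49. The probe set shared by Irs2 and 9530052E02Rik, which was not used for Irs2, measured 5.27, 5.13 and 4.998 in ErbB4-/- liver and 5.07, 5.06 and 5.06 in control liver.

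**Figure D2:**
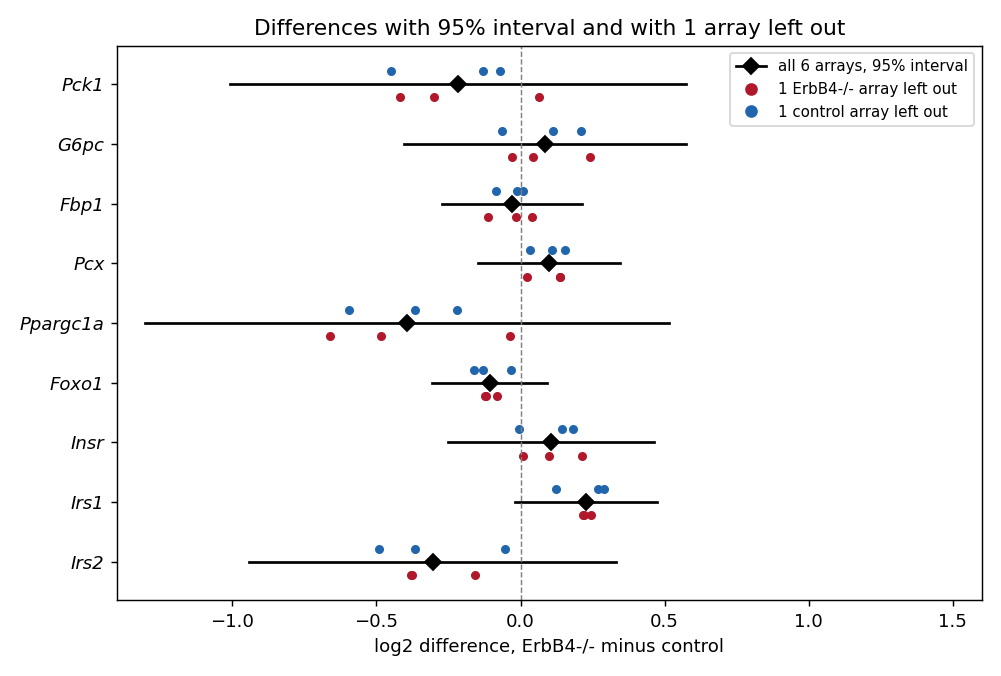
Log2 difference, ErbB4-/- minus control (horizontal axis), of the 9 genes with its 95% interval from limma in black. Red points give the difference with 1 ErbB4-/- array left out and blue points with 1 control array left out. Every black line crosses 0, and the points of Pck1, G6pc, Fbp1 and Insr fall on both sides of it.

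Likeness between genes was measured as the mean absolute difference of their log2 profiles over the 6 arrays, after each gene's mean was subtracted, among genes whose mean reached the median of all genes. The nearest of 10386 genes to Ppargc1a was Pck1, at 0.15, followed by St3gal5, a ganglioside synthase gene, and the hepatokine gene Fgl1, both at 0.17. Nearest to Pck1 were the chemokine gene Ccl5 at 0.12, the cationic amino acid transporter gene Slc7a2 at 0.13 and the receptor gene Ror1 at 0.14. Ppargc1a stood at 0.15 from Pck1, and the other 7 members stood between 0.26 and 0.46 from it, with G6pc the farthest. The profiles were not scaled, so a gene of small spread stands far from Pck1 even where the arrays are ordered alike. Fbp1, with a range of 0.30, stood at 0.26. Its lowest arrays were ErbB4-/- replicate 1, control replicate 2 and ErbB4-/- replicate 2, in the same order as for Pck1. Nearest to Irs2 were App, at 0.084, Ugcg, a glucosylceramide synthase gene, at 0.085, and Rab27a at 0.0975, all of which had their highest value in control replicate 1. For the other 6 members, whose SD over the arrays was under 0.3, no nearest genes were sought. The points share 6 arrays, and the measure is a description.

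A list of lipogenic and glycolytic genes was set beside these profiles, 15 of 16 measured. Insulin induces these genes in liver, with the exception of Insig2, which is counted in the list and in its means. Its mean was 9.46, 9.27 and 9.01 in ErbB4-/- replicates 1 to 3 and 9.26, 9.95 and 9.14 in control replicates 1 to 3. Control replicate 2 and ErbB4-/- replicate 1, the arrays with the lowest Pck1, Ppargc1a and Fbp1, thus had the highest means of the list. Of the genes named from it below, only Angptl8 had its highest values on these 2 arrays. The fatty acid synthase gene Fasn measured 9.83, 9.62 and 9.33 in ErbB4-/- liver, against 9.88, 10.98 and 9.40 in control liver. Of the 15 genes, 2 had a higher and 13 a lower mean in ErbB4-/- liver, with a median difference of -0.22, 0 that passed and 0 at an unadjusted p under 0.05 (limma). Angptl8, an inhibitor of lipoprotein lipase that feeding raises, had the largest difference, -0.61 (standard error 0.66), which was 0.017 without ErbB4-/- replicate 3. The sterol sensors Insig1 and Insig2 differed by -0.59 and -0.39, which came to -0.21 and -0.012 without ErbB4-/- replicate 3. Fasn differed by -0.49, which was -0.049 without control replicate 2. With the week as a covariate Angptl8, Insig1 and Fasn turned to 1.91, 0.45 and 0.24.

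Glucocorticoid-responsive and clock genes were also placed beside the members, since both inputs act on Pck1 and Ppargc1a. The mean of the 10 glucocorticoid-responsive genes was 8.57, 8.88 and 8.86 in ErbB4-/- replicates 1 to 3, against 9.93, 9.15 and 9.87 in control replicates 1 to 3. It was lowest in ErbB4-/- replicate 1, and 9 of 10 genes had a lower mean in ErbB4-/- liver, although 0 passed and 2 had an unadjusted p under 0.05 (limma), against 5.72% of all genes. The metallothionein gene Mt2 measured 9.19, 10.42 and 11.81 in ErbB4-/- liver and 12.85, 11.59 and 12.94 in control liver. Dusp1, also of this list, measured 9.86, 9.82 and 7.28 in ErbB4-/- liver and 10.16, 10.13 and 10.48 in control liver. It was thus lowest in ErbB4-/- replicate 3, unlike Mt2, and its groups did not overlap. Genes lower without overlap made up 3.81% of all genes. The Dusp1 difference of -1.27 was -0.42 without ErbB4-/- replicate 3. The clock gene Per1, counted in the glucocorticoid list too, measured 6.77, 7.65 and 8.53 in ErbB4-/- liver and 9.17, 8.11 and 8.44 in control liver. Its lowest value was in ErbB4-/- replicate 1. Dbp, a transcription factor gene under clock control, measured 7.52, 7.61 and 10.18 in ErbB4-/- liver and 9.01, 7.06 and 6.79 in control liver, a difference of 0.82 that turned to -0.055 without ErbB4-/- replicate 3. The 14 measured clock genes had a median difference of 0.16, with 8 higher and 6 lower. Their part in the values of Pck1 and Ppargc1a was not tested.

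**Figure D3:**
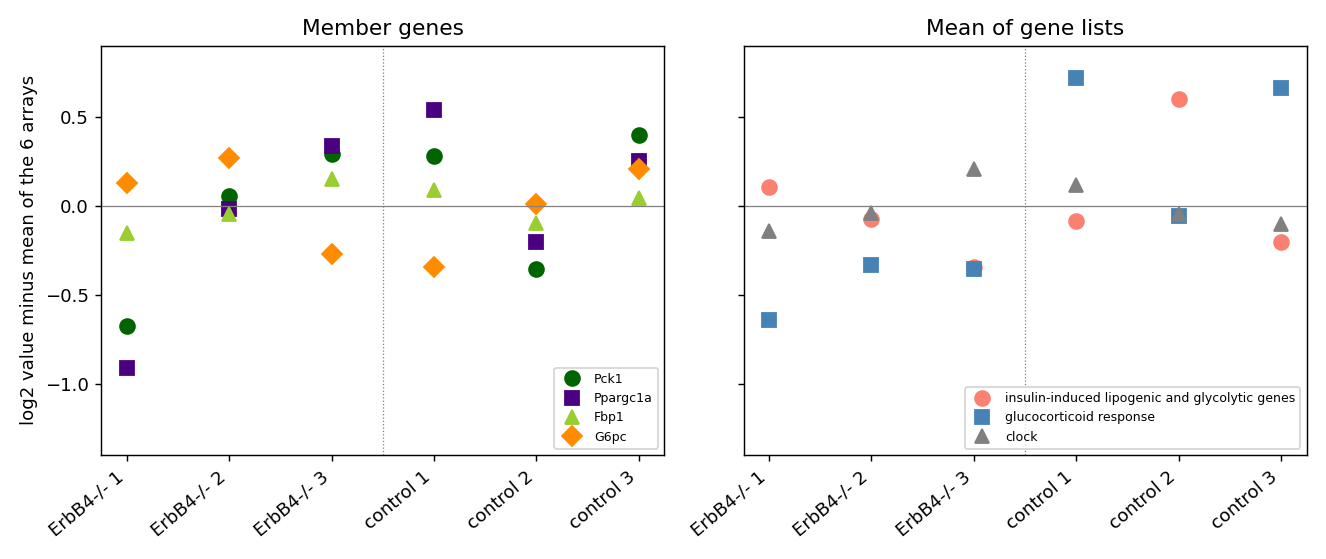
Log2 value on each array minus the mean of the 6 arrays (vertical axis), for 4 of the genes (left panel) and for the mean of 3 gene lists (right panel), with ErbB4-/- arrays left of the dotted line and control arrays right of it. Pck1 and Ppargc1a are lowest in ErbB4-/- replicate 1 and then in control replicate 2, where the mean of the insulin-induced list is above its average, and G6pc does not follow them.

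Other genes of the pathway were read as lists chosen by function. With the 9 genes they made up 141 measured genes, of which 0 passed and 11 had an unadjusted p under 0.05 (limma), against 5.72% of all genes. The groups did not overlap in 17 of the 141, 11 higher and 6 lower in ErbB4-/- liver, against 8.33% of all genes. Of 32 further genes of gluconeogenesis, including those for aminotransferases and mitochondrial carriers, 26 were measured, with 12 higher, 14 lower and a median difference of -0.02. Ldha, a lactate dehydrogenase subunit, measured 7.996 ± 0.165 in ErbB4-/- liver and 8.52 ± 0.42 in control liver, a difference of -0.53 that was -0.31 without control replicate 1. Slc25a10, the mitochondrial dicarboxylate carrier, was the gene of this list with the largest difference upwards, 8.005 ± 0.145 in ErbB4-/- liver against 7.72 ± 0.05 in control liver, and Mdh2, the mitochondrial malate dehydrogenase, had 10.30 ± 0.13 in ErbB4-/- liver and 10.07 ± 0.11 in control liver. In these 3 genes the groups did not overlap. Gpd1, which links glycerol to the pathway, differed by 0.19 with overlap, and by 0.11 with the mean of all its probe sets.

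Among 29 of 30 measured regulators of gluconeogenesis 13 were higher, 15 lower and 1 equal, with a median difference of -0.0007. Cebpb, a transcription factor gene that responds to cyclic AMP and to cytokines, measured 8.31, 8.39 and 8.73 in ErbB4-/- replicates 1 to 3, against 8.976, 9.0035 and 9.491 in control replicates 1 to 3. Its groups did not overlap, with a difference of -0.68 and a standard error of 0.18 (limma, adjusted p = 0.760). Hnf4a, a nuclear receptor of hepatocytes, measured 10.68, 10.74 and 10.67 in ErbB4-/- replicates 1 to 3, against 11.02, 10.79 and 11.17 in control replicates 1 to 3, again without overlap. The glucagon receptor gene Gcgr, chosen after its values were seen, lay between 8.71 and 9.07 in ErbB4-/- liver and between 8.61 and 8.67 in control liver. Its difference of 0.26 did not pass (limma, adjusted p = 0.760). Esrra and Stk11, of the same list, were also higher without overlap, by 0.30 and 0.16. In all, the groups did not overlap in 5 of the 29 regulators, 3 higher and 2 lower, against 8.33% of all genes. The forkhead factor gene Foxo3 differed by -0.32 and Prkaa1, a catalytic subunit of AMP-activated kinase, by -0.30, both with overlap. The value of Prkaa1 was -0.051 without ErbB4-/- replicate 3 and turned to 0.38 with the week as a covariate.

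Downstream of the insulin receptor, 32 of 35 listed kinases, adaptors and their partners were measured, with 18 higher, 13 lower, 1 equal and a median difference of 0.032. Differences here were small, from -0.21 to 0.21. Tsc1, which restrains the kinase mTOR, measured 7.20 ± 0.05 in ErbB4-/- liver and 6.996 ± 0.092 in control liver, and Mlst8, a subunit of the mTOR complexes, 5.96 ± 0.04 in ErbB4-/- liver and 5.79 ± 0.05 in control liver, both without overlap. The adaptor gene Sh2b1 differed by 0.18 and the kinase gene Prkcz by 0.18, with overlap, and these came to 0.089 without ErbB4-/- replicate 2 and 0.081 without control replicate 1.

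Inhibitors of insulin signalling, 18 of 20 measured, had 10 higher, 8 lower and a median difference of 0.0052, with a pair of genes far below the rest. Trib1, a pseudokinase gene, measured 8.53, 8.22 and 8.11 in ErbB4-/- replicates 1 to 3, against 10.00, 9.05 and 9.52 in control replicates 1 to 3. The groups did not overlap, and the difference was -1.24 (standard error 0.26; limma, unadjusted p = 0.00356, adjusted p = 0.760). Socs3, a cytokine-induced suppressor that also acts on the insulin receptor, measured 6.87, 6.54 and 5.87 in ErbB4-/- liver and 8.81, 7.33 and 6.87 in control liver. Its difference of -1.24 was -0.68 without control replicate 1, -0.40 without both that array and ErbB4-/- replicate 3, and 0.96, of opposite sign, with the week as a covariate. With the mean of all probe sets of Socs3 the difference was smaller, -0.88. The lipid phosphatase gene Inppl1 differed by 0.22 and the kinase gene Prkcd by -0.22.

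Targets that insulin represses and FOXO1 drives, 14 of 15 measured, were split evenly, with 7 higher, 7 lower and a median difference of 0.037. Igfbp1, whose product binds insulin-like growth factors and whose transcription in liver is a standard readout of insulin action, measured 9.67, 10.30 and 9.40 in ErbB4-/- replicates 1 to 3, against 11.53, 10.76 and 11.87 in control replicates 1 to 3. Every ErbB4-/- array lay below every control array. The means were 9.79 ± 0.46 in ErbB4-/- liver and 11.39 ± 0.56 in control liver (SD, n = 3 each), a difference of -1.60 (standard error 0.36). It did not pass over all genes (limma, unadjusted p = 0.00505, adjusted p = 0.760), and leaving out 1 array gave between -1.91 and -1.36. Genes without overlap and lower in ErbB4-/- liver made up 3.81% of all genes. In Pck1 and G6pc, which are FOXO1 targets in liver as well, the groups overlapped. Sesn3, a FOXO1 target that acts on mTOR and AKT, was higher without overlap, at 8.26, 8.32 and 8.05 in ErbB4-/- liver and 7.53, 7.97 and 8.02 in control liver. The repressor gene Bcl6 differed by 0.91 with overlap, or 0.45 without ErbB4-/- replicate 2, and Klf15, a fasting-induced factor, by 0.26, which was -0.0054 without ErbB4-/- replicate 3.

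Transcripts of several other liver cell types had lower means in ErbB4-/- liver, as did Igfbp1, Trib1, Socs3, Cebpb and Ldha. All 14 Kupffer cell and macrophage markers had a lower mean in ErbB4-/- liver, and the mean of the list was 7.52 to 8.29 in ErbB4-/- arrays, against 8.64 to 8.91 in control arrays. All 12 neutrophil markers were lower too, at 4.67 to 4.92 in ErbB4-/- arrays and 5.26 to 7.19 in control arrays. Of the liver endothelial markers 9 of 10 were lower, with list means of 8.10, 7.57 and 7.03 in ErbB4-/- replicates 1 to 3 and 8.13 to 8.52 in control arrays. Of the stellate cell markers 8 of 10 were lower, at 7.64, 7.42 and 7.07 in ErbB4-/- replicates 1 to 3 and 7.64 to 7.69 in control arrays, with overlap. All 10 hepatocyte markers were lower, with a median difference of -0.04. Immediate early genes, 17 of 18 with a lower mean, had list means of 8.03, 7.78 and 6.36 in ErbB4-/- replicates 1 to 3 and 8.14 to 8.98 in control arrays. ErbB4-/- replicate 3 had the lowest mean in each of these lists except the neutrophil list, where ErbB4-/- replicate 1 was lowest. Igfbp1, Trib1 and Socs3 were also lowest in ErbB4-/- replicate 3. Cebpb and Ldha were not: both were lowest in ErbB4-/- replicate 1, and Cebpb was highest of the ErbB4-/- arrays in replicate 3. Btg2 and Fos of the immediate early list differed by -2.13 and -2.10, which came to -1.05 and -0.83 without ErbB4-/- replicate 3. None of these list genes passed, and an unadjusted p under 0.05 (limma) was reached by 11 macrophage, 11 neutrophil, 6 endothelial, 2 stellate cell, 1 hepatocyte and 2 immediate early genes, against 5.72% of all genes. Their part in the values of the 5 genes was not tested.

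**Figure D4:**
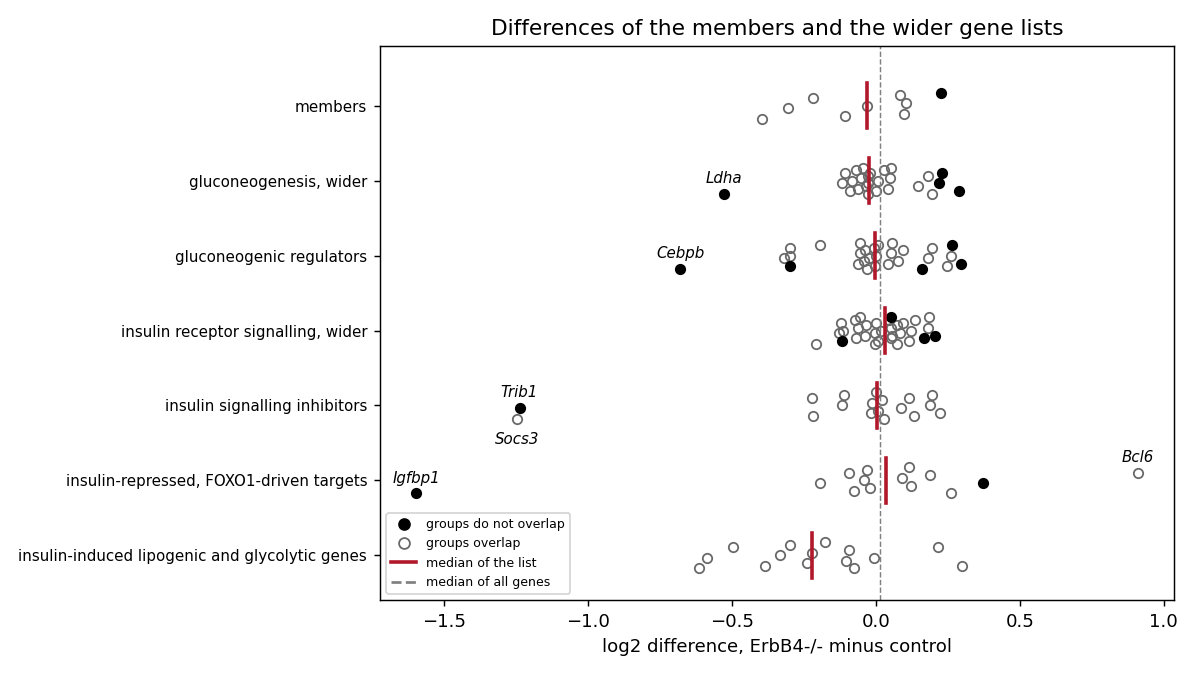
Log2 difference, ErbB4-/- minus control (horizontal axis), of each measured gene of the 9 members and of the wider lists (rows). Filled points are genes whose groups do not overlap, red bars the median of a list and the dashed line the median of all genes. The medians lie near the dashed line except in the insulin-induced list, at -0.22, and Igfbp1, Trib1 and Socs3 lie farthest to the left.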

How the data were processed

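Liver RNA of 6 mice was labelled with biotin and hybridised to Affymetrix whole-transcript arrays, per the labels' protocols. Log2 expression values, 1 per probe set and array, were deposited by the authors, and the sources used here do not give the background correction, normalization or summarisation behind them. Base 2 was inferred from the range of the values, 1.74 to 14.37. Of 41345 probe sets, 23521 have 1 gene symbol in the platform annotation, 1814 have several and 16010 are unnamed here. This left 22180 genes, each at its brightest probe set, with no filter on dim ones, so a low value can be background. Differences were fitted across all genes with lmFit and eBayes of limma 3.58.1 (R 4.3.3), two-sided, genotype as the only term, with 95% intervals from limma. Precision is limited by the number of arrays, and a permutation of 3 against 3 arrays cannot give p below 0.10. The fit was also run on simulated data with independent noise for each gene and array. Such data hold no spread shared between genes, so that run checks the code and not how well the fit suits these arrays.

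The 9 genes and all gene lists were chosen with earlier results of these data known, and lists are described by counts and medians only. Named from each wider list were the 4 genes (2 for state lists such as clock genes) with the largest difference at or above the median level. Gcgr, Esrra and Stk11 were named besides these, after their values were seen. Likeness was computed for the members with an SD of at least 0.3 over the arrays. In same-numbered arrays the deviations from the group means correlated at -0.10, 0.034 and -0.050 across genes. In arrays of different number the correlations ran from -0.077 to 0.103. With 3 arrays per group this cannot decide whether the mice were paired, and the main fit used no pairing. Alternatives were another quantile normalization, median centring, a level filter, the mean of all probe sets, every row tested, a robust prior with a trend, weights per array, the replicate block, the week of dissection, each array left out, thresholds of 0.01 and 0.1 and, added after seeing the data, leaving out a control and an ErbB4-/- array together and the second probe sets of Irs1 and Foxo1. Figures were drawn with matplotlib 3.10.9.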

Additional observations from a re-analysis of the deposited data

How the results depend on the processing

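No member gene and no gene of the wider lists passed under any alternative that was run, with adjusted p of 0.645 to 1 for the members (limma). The number of all genes that passed was 1, Clca3a1, and became 0 with every row tested, with the replicate block, with the week of dissection, at a threshold of 0.01, without both control replicate 1 and ErbB4-/- replicate 3, and in a range of 0 to 0 with each array left out. Ppargc1a, Foxo1 and Irs1 kept their direction under every alternative run. Leaving out 1 array gave -0.45 to 0.066 for Pck1, -0.065 to 0.24 for G6pc, -0.11 to 0.038 for Fbp1, -0.0048 to 0.21 for Insr, -0.0054 to 0.50 for Klf15, -1.14 to 0.017 for Angptl8, -0.055 to 1.51 for Dbp, -0.30 to 3.35 for Hsd3b5, -2.29 to 0.087 for Cyp2b9 and -2.14 to 0.37 for Cyp2b13. Quantile normalization again turned Fbp1 to 0.0035. With the week as a covariate the signs turned for G6pc (-0.029), Pcx (-0.0074), Irs2 (0.17), Prkaa1 (0.38), Sh2b1 (-0.080), Socs3 (0.96), Prkcd (0.023), Klf15 (-0.52), Angptl8 (1.91), Insig1 (0.45), Fasn (0.24), Dusp1 (0.42), Angptl4 (-0.47), Btg2 (0.845), Fos (1.68), Mup21 (-1.53), Hsd3b5 (-2.17), Cyp2b9 (1.65) and Cyp2b13 (2.49). The week follows the order of the samples and is largely confounded with genotype, so these turned values are extrapolations. Without both control replicate 1 and ErbB4-/- replicate 3, Klf15 (-0.0023), Angptl8 (0.15), Hsd3b5 (-0.015), Cyp2b9 (0.093) and Cyp2b13 (0.36) turned. The causes were not tested. The replicate block gave the same differences with fewer residual degrees of freedom, and the count of genes that passed was 0. The replicate numbers name separate mice.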

Other observations

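Exact repeats of a value between arrays were common in the deposited table: 19843 of 41345 probe sets, 47.994%, held the same value on at least 2 arrays, and 1208 held it on 5 or 6 arrays. Among the members, Pcx had the same value, 9.98, in ErbB4-/- replicate 2 and control replicate 3, and the second probe sets of Irs1 and Foxo1 repeated a value on 3 and 5 arrays.

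Fasting-responsive genes of fatty acid oxidation had a list mean of 8.72, 8.90 and 9.02 in ErbB4-/- replicates 1 to 3, against 8.83, 8.16 and 8.74 in control replicates 1 to 3. Control replicate 2 was the lowest array. ErbB4-/- replicate 1, the lowest for Pck1, was next, but nearly level with control replicate 3, the highest for Pck1. Of 9 measured genes of the fasting and PPARa list, 8 had a higher and 1 a lower mean in ErbB4-/- liver, with a median difference of 0.31, 0 that passed and 2 at an unadjusted p under 0.05 (limma), against 5.72% of all genes. Vnn1, a PPARa target, measured 8.39, 8.61 and 9.16 in ErbB4-/- replicates 1 to 3, against 8.29, 6.98 and 7.94 in control replicates 1 to 3. Angptl4, an inhibitor of lipoprotein lipase that fasting raises, measured 9.68 ± 0.37 in ErbB4-/- liver and 9.04 ± 0.58 in control liver (SD, n = 3 each), with overlap.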
